A study of Mus musculus with 14 samples.

Results

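The genes described here encode the subunits of the mitochondrial respiratory chain and of the ATP synthase. They were chosen by symbol, as all genes on the array that begin with Nduf, Uqcr or Atp5, that are Sdha, Sdhb, Sdhc or Sdhd, or that begin with Cox and a digit from 4 to 8. The rule used no measured value and found 84 of 12393 genes. By symbol, 34 belong to complex I, 4 to complex II, 8 to complex III, 16 to complex IV and 17 to the ATP synthase (complex V), and the other 5 are Ndufaf genes, which help to assemble complex I. Ndufa4 was counted with complex I by its symbol, although its protein is now placed with complex IV.

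The respiratory chain takes electrons from NADH at complex I and from succinate at complex II, passes them through coenzyme Q to complex III and through cytochrome c to complex IV, and there reduces oxygen to water. Complexes I, III and IV pump protons across the inner mitochondrial membrane, and the ATP synthase uses their return to make ATP. White fat cells need this capacity to build and mobilise triglyceride, while brown fat cells hold many more mitochondria and let the proton gradient run down as heat through Ucp1.

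Affymetrix arrays were hybridised with RNA from the white fat pad beside the epididymis of 14 ICR mice, all labelled male and 3 weeks old. The CC mice (n = 5) had dams that ate freely through pregnancy and nursing. The UC mice (n = 5) had dams held to 50% food restriction in pregnancy and fed freely while nursing, and the UU mice (n = 4) had dams held to that restriction at both stages. Whether any of the mice were littermates is not given in the labels, so the tests count every array as its own animal, and the number of arrays limits the precision.

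Values are array signals, which as deposited have nearly the same trimmed mean on each array. Because each probe set binds with its own strength, signals are compared between arrays for one gene and never between genes. Differences are differences of group means of log2(signal + 32), fitted with limma over 7436 genes, and a gene was called when its Benjamini-Hochberg adjusted p was below 0.05. Of the 84 members 79 entered the fit. Ndufb1, Cox4i2, Cox6a2, Cox6b2 and Cox7c were among the dimmest 40% of genes and were left out of it. The 3 comparisons share arrays in pairs, so they are not independent of one another. In a piece of whole tissue, fewer cells of a type and less RNA per cell cannot be told apart.

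Some arrays stood apart before any comparison was made. Xist, which females transcribe from their inactive X chromosome, reached 3981 in the array of CC replicate 2 and 5643 in that of UC replicate 5 and at most 1324 in the others. The Y-linked Eif2s3y was at 58.6 and 7.9 in these 2 arrays, which goes against their male labels. Both arrays, with CC replicate 4 and UC replicate 2, also had summed signals of 7 epididymal epithelium markers of 1043 to 2650, against 20437 to 131789 in the other 10 arrays. The log2 ratio of 3' over 5' control probe sets, which grows as RNA degrades, ran from 0.40 to 2.10 and was highest in UU replicate 3. Summed signals of 5 liver markers were highest in UC replicate 2, at 63941, followed by 9888 and 8815 in UC replicates 4 and 1 and at most 3019 elsewhere.

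No respiratory chain or ATP synthase gene was called in any comparison. Over all 7436 genes the share called was 0.0% for UC against CC, 0.0% for UU against CC and 0.807% for UC against UU, so 0 of 79 members is close to that background in each. What the members showed was a tilt of small differences. Against CC, 57 of the 79 tested members lay lower in UU, with a median difference of -0.19, while the median over all genes tested was 0.05 and 44.6% of them lay lower. Between the restricted groups, 65 of 79 lay higher in UC than in UU, with a median of 0.28, against -0.06 and 43.3% over all genes. Between UC and CC, 49 lay higher and 30 lower, with a median of 0.08, and 49.5% of all genes lay higher. The same counts without the 5 Ndufaf genes were 55 of 74 lower in UU than in CC and 61 of 74 higher in UC than in UU.

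**Figure D1:**
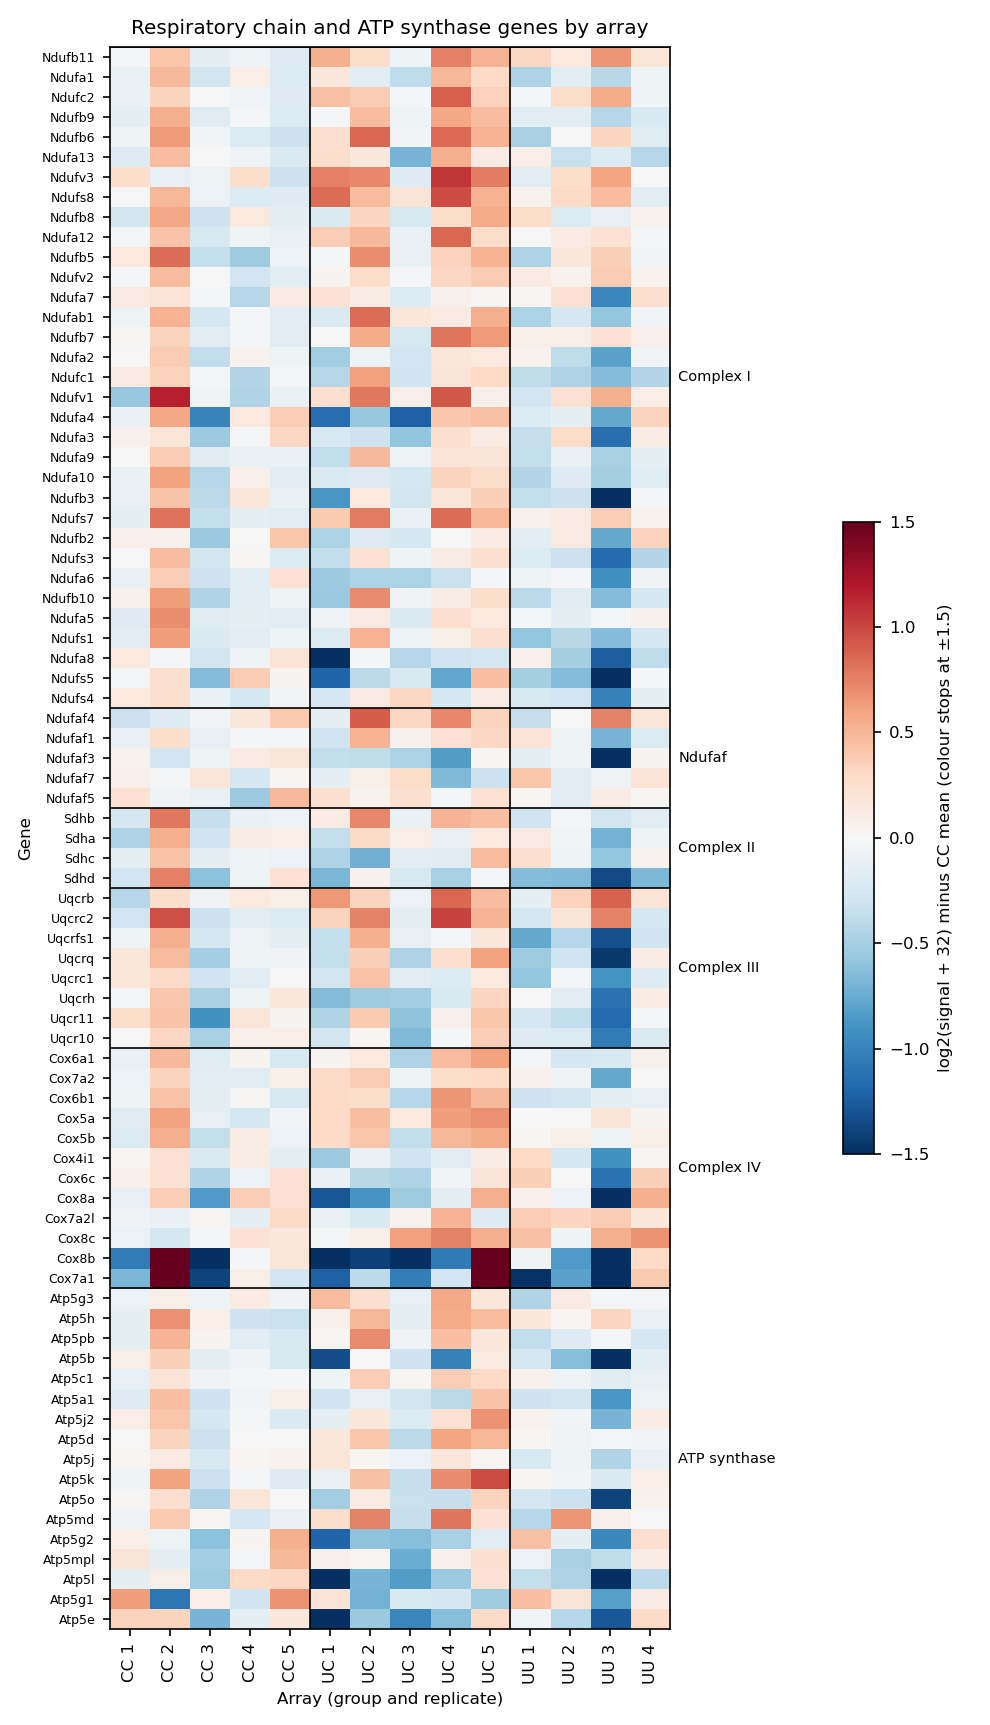
Each row is 1 of the 79 tested genes and each column 1 array, grouped by complex and by CC, UC and UU; colour gives log2(signal + 32) minus the CC mean, red above and blue below. The column of UU replicate 3 is the darkest blue, CC replicate 2 is mostly red, and Cox8b and Cox7a1 are deep red in CC replicate 2 and UC replicate 5 alone.

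The tilt was uneven among the arrays of a group. As the median over the 79 members of each array's deviation from the CC mean, the CC arrays had -0.06, 0.41, -0.26, -0.04 and -0.05 and the UC arrays had -0.15, 0.22, -0.22, 0.23 and 0.30. The UU arrays had -0.14, -0.09, -0.58 and -0.02. CC replicate 2 was the highest array of all and UU replicate 3 the lowest, and the 3 groups overlapped. In UU replicate 3, 21 of the 79 members were more than 1 log2 unit below the CC mean, against at most 10 in any other array, and this was also the array of the highest 3'/5' ratio. Without UU replicate 3 the median of UU against CC was -0.05, with 48 of 79 lower, and that of UC against UU was 0.22. Without CC replicate 2 the median of UU against CC was -0.10 and that of UC against CC was 0.19.

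The comparison of UU with CC asks what restriction through pregnancy and nursing left in the fat of these mice at weaning age. The members lay lower in UU in every complex, by medians of -0.21 in complex I (22 of 33 lower), -0.18 in complex II (4 of 4), -0.42 in complex III (6 of 8), -0.15 in complex IV (8 of 12) and -0.14 in the ATP synthase (15 of 17), while the Ndufaf genes had a median of 0.00. None of these differences passed adjustment over all genes. At an unadjusted p under 0.05, 8 members were lower and 0 higher, where 7.75% of all genes were lower and 8.63% higher. The count of 8 was 2 without CC replicate 2, 5 without CC replicate 1 or 5, 13 without CC replicate 3 and 12 without UU replicate 4. It was 2 with the 3'/5' ratio in the fit, 3 without the 4 arrays low in epididymal markers or the 2 with Xist signal, 4 with array weights, 5 with the epididymal level in the fit or quantile normalization and 13 with median centring. Without UU replicate 3, 2 members were lower at that level, and the medians were -0.11, -0.08, -0.21, 0.02 and -0.06 from complex I to the ATP synthase. Complexes II and IV had medians of 0.02 and 0.09 with array weights, and of 0.03 and 0.01 without the 4 arrays low in epididymal markers.

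Sdhd is one of the membrane anchors of complex II that hold its coenzyme Q site. Its signals were 3894, 8044, 3098, 4498 and 5550.4 in the CC arrays and 2949.8, 4972, 4031, 3388 and 4648 in the UC arrays. The UU arrays had 3017, 3001, 1839 and 2979. All 4 UU arrays lay below all 5 CC arrays, 3 of them within a narrow band just under the lowest CC value, and the UC arrays overlapped both groups. The difference between UU and CC was -0.83 ± 0.25 (SE; adjusted p = 0.158), the smallest adjusted p of any member in that comparison. A second probe set of Sdhd gave -0.11. Sdhc, the other membrane anchor, differed by -0.09 ± 0.23 (SE; adjusted p = 0.86), with -0.89 by its second probe set. The catalytic subunits differed by -0.17 ± 0.22 (SE; adjusted p = 0.719) for Sdha, with -0.32 by its second probe set, and by -0.19 ± 0.22 (SE; adjusted p = 0.67) for Sdhb, so the order among the 4 subunits depends on the probe set.

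Uqcrfs1 is the Rieske iron-sulfur protein, which carries electrons out of the coenzyme Q site of complex III. It had signals of 9867, 14876, 8552, 9775 and 9367 in CC, 8033, 14955, 9454, 10043 and 11533 in UC and 6026, 7633, 4117 and 8370.0 in UU. Every UU array was below every CC array, and UC replicate 1 was the one UC array within the UU range. The differences were -0.70 ± 0.23 (SE; adjusted p = 0.174) between UU and CC and 0.74 ± 0.23 (SE; adjusted p = 0.13) between UC and UU. Without UU replicate 3 they were -0.50 (adjusted p = 0.455) and 0.54 (adjusted p = 0.236). In the same complex Uqcrc1, a core protein, differed between UU and CC by -0.42 ± 0.20 (SE; adjusted p = 0.316). Uqcrb, a small subunit near the coenzyme Q site, differed by 0.32 ± 0.23 (SE; adjusted p = 0.476), but its second probe set gave -0.58.

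In complex I, Ndufs1 and Ndufs3 belong to the core that passes electrons from NADH toward coenzyme Q. Ndufs1, the largest iron-sulfur subunit, had signals of 3953, 6847, 3827, 3929 and 4223 in CC, 3844, 6373, 4191, 4734 and 5230.1 in UC and 2963, 3316, 2811 and 3726 in UU. The UU arrays lay below both other groups with no overlap, while CC and UC overlapped. Its difference was -0.47 ± 0.19 (SE; adjusted p = 0.244) between UU and CC and 0.59 ± 0.19 (SE; adjusted p = 0.147) between UC and UU. Ndufs3 differed between UU and CC by -0.53 ± 0.21 (SE; adjusted p = 0.232), and its groups overlapped. The accessory subunits Ndufc1, Ndufs4 and Ndufs5 had differences of -0.48 ± 0.21 (SE; adjusted p = 0.268), -0.42 ± 0.19 (SE; adjusted p = 0.296) and -0.82 ± 0.38 (SE; adjusted p = 0.295). A second probe set above the filter gave -0.39 for Ndufc1 but 0.04 for Ndufs4. The Ndufs5 value was -0.39 without UU replicate 3, where its signal was 948 against 2676 to 4125 in the other UU arrays.

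In the ATP synthase the lowest member was Atp5l, a small subunit of the membrane part, with -0.83 ± 0.37 (SE; adjusted p = 0.284) between UU and CC. Without UU replicate 3 it was -0.41. The catalytic beta subunit Atp5b had signals of 32576, 39153, 27489, 29362 and 25766 in CC, 12153, 30322, 24562, 15156 and 33432 in UC and 25566, 19524, 9315 and 27445 in UU, and a difference of -0.69 ± 0.33 (SE; adjusted p = 0.311) between UU and CC. Its lowest arrays, UU replicate 3, UC replicate 1 and UC replicate 4, were the 3 of highest 3'/5' ratio. The alpha subunit Atp5a1 differed by -0.38 ± 0.21 (SE; adjusted p = 0.368), but its other probe sets gave 0.22 and 0.09. Over all 79 members, 3 had UU arrays wholly below the CC arrays (Ndufs1, Sdhd and Uqcrfs1) and 0 had them wholly above, where 3.63% and 4.71% of all genes did so.

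**Figure D2:**
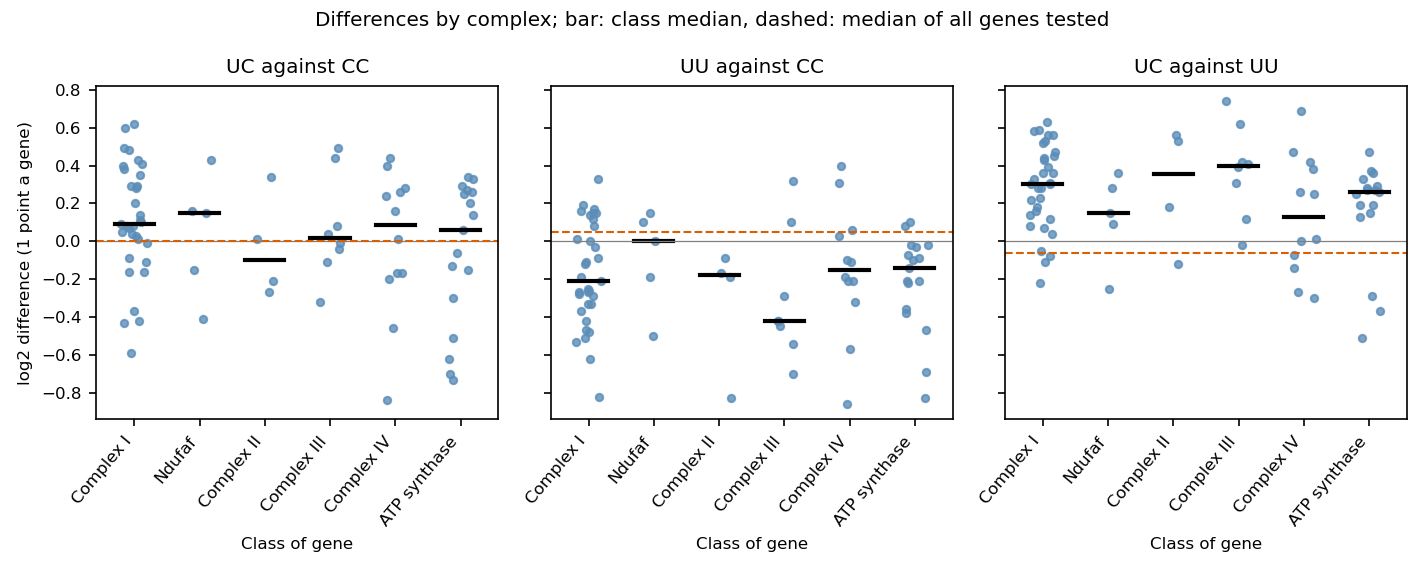
Each point is the log2 difference of 1 gene, in columns by class, for UC against CC (left), UU against CC (middle) and UC against UU (right); black bars are class medians and the dashed line is the median of all 7436 genes tested. In the right panel the medians of all 6 classes, from 0.13 to 0.40, lie above the dashed line at -0.06.

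UC against UU asks what the mother's feeding during nursing changed after the same restriction in utero. Members lay higher in UC in every class, with medians of 0.30 in complex I (29 of 33 higher), 0.36 in complex II (3 of 4), 0.40 in complex III (7 of 8), 0.13 in complex IV (8 of 12), 0.26 in the ATP synthase (14 of 17) and 0.15 in the Ndufaf genes (4 of 5). The complex IV median was 0.01 with the mean of probe sets and with the dimmest 60% of genes left out. It was 0.04 without the 4 arrays low in epididymal markers and 0.27 with median centring. At an unadjusted p under 0.05, 15 members were higher in UC and 0 lower, against 9.17% and 8.74% of all genes. The count of 15 was 6 without UC replicate 2, 8 without UC replicate 4, 10 without UC replicate 5 or UU replicate 1, 25 without UC replicate 3 and 4 without the 4 arrays low in epididymal markers. It was 7 with the epididymal level in the fit, 9 with the mean of probe sets and 25 with median centring. The smallest adjusted p was that of Uqcrfs1, 0.13. The UC arrays lay wholly above the UU arrays for 2 members, Ndufs1 and Ndufb9, and wholly below for 0, where 3.5% and 2.5% of all genes did so. The tilt over all members kept its direction in each alternative run, with medians from 0.12 without the 4 arrays low in epididymal markers to 0.42 with median centring. Median centring moved the median of all genes from -0.06 to 0.08, so that the members' shift relative to all genes was alike in both. Under quantile normalization it was smaller, with a median of 0.19 for the members and -0.01 for all genes.

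Ndufab1, the mitochondrial acyl carrier protein, which is also a complex I subunit, had signals of 7543, 15694, 9810.1, 9523 and 12777 in UC, 6309, 7363, 5842 and 8530.1 in UU and 8275, 12614, 7299.6, 8622 and 7783 in CC. UC replicate 2 was the highest of all arrays, and UC and UU overlapped only through UC replicate 1 and UU replicate 4. Its difference between UC and UU was 0.63 ± 0.22 (SE; adjusted p = 0.169). Ndufb9, an accessory subunit of complex I, had 17551, 24532, 16912, 26501 and 24599.8 in UC and 15879.6, 15774, 13182 and 15138 in UU, with every UC array above every UU array, and differed by 0.53 ± 0.19 (SE; adjusted p = 0.172). Other members of small p in this comparison were Ndufc1 with 0.56 ± 0.21 (SE; adjusted p = 0.195), Ndufs3 with 0.56 ± 0.21 (SE; adjusted p = 0.198), Ndufb6 with 0.58 ± 0.24 (SE; adjusted p = 0.219) and Atp5pb, the peripheral stalk subunit b of the ATP synthase, with 0.47 ± 0.19 (SE; adjusted p = 0.218).

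Within complex II the differences between UC and UU varied. Sdhb, its iron-sulfur subunit, was 0.53 ± 0.22 (SE; adjusted p = 0.227) between UC and UU and Sdhd 0.56 ± 0.25 (SE; adjusted p = 0.26), Sdha, the flavoprotein, was 0.18 ± 0.22 (SE; adjusted p = 0.688), and Sdhc was -0.12 ± 0.23 (SE; adjusted p = 0.807). The second probe sets gave 0.07 for Sdhd, 0.74 for Sdha and 0.20 for Sdhc, so this order too turns with the probe set. The Sdhb signals were 10217, 20986, 9589, 11283 and 11401 in CC, 13195, 19994, 11316, 17297 and 16564 in UC and 9894, 11863, 10004 and 10834 in UU. The UU arrays sat together near the low end, UC replicate 3 overlapped them, and CC replicate 2 was the highest array. Over all classes, 14 of the 79 tested members lay the other way. The lowest was Atp5g2, which encodes a precursor of the c-ring subunit, at -0.51 ± 0.28 (SE; adjusted p = 0.351). Atp5e, also of the ATP synthase, differed by -0.37 ± 0.37 (SE; adjusted p = 0.615). Ndufa4 was the lowest counted with complex I, at -0.22 ± 0.38 (SE; adjusted p = 0.789). Uqcrh, the hinge protein, was the lowest of complex III, at -0.02 ± 0.26 (SE; adjusted p = 0.971).

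**Figure D3:**
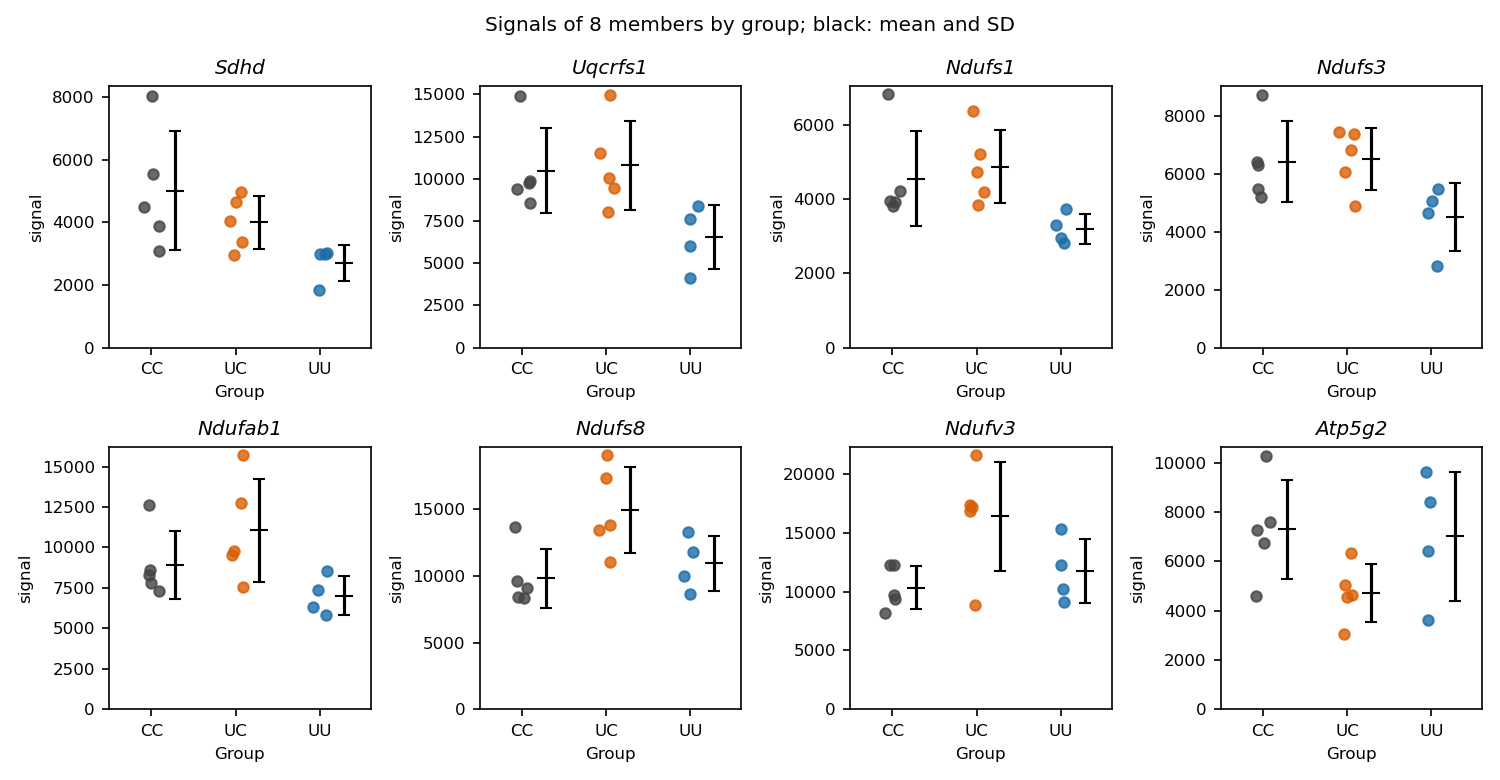
Signals of 8 members by group on linear axes from 0; each point is 1 array and black marks give the mean and SD (CC and UC n = 5, UU n = 4). The UU points lie below all CC points for Sdhd, Uqcrfs1 and Ndufs1, and the UC points for Ndufs8 and Ndufv3 lie mostly above CC.

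UC against CC asks what restriction in utero alone left behind once nursing was unrestricted. The members were split, with 9 higher and 1 lower at an unadjusted p under 0.05, where 4.76% of all genes were higher and 3.99% lower, and for 0 members were the groups free of overlap. The count of 9 depends on single arrays: it was 3 without CC replicate 1, 3 or 4 or UC replicate 4 or 5, 5 without CC replicate 5 or UC replicate 2, 6 without UU replicate 2, 17 without UC replicate 3 and 20 without CC replicate 2. It was 1 with the 3'/5' ratio in the fit, 3 with the mean of probe sets, 14 without the 2 arrays with Xist signal and 18 with array weights. Of the 9 higher, 7 were complex I genes, with a class median of 0.09. The medians of the others were -0.10 in complex II, 0.01 in complex III, 0.08 in complex IV and 0.06 in the ATP synthase. Over the fits that left out 1 array, the overall median of 0.08 ranged from 0.01 without CC replicate 3 to 0.19 without CC replicate 2, and it was 0.03 without UC replicate 2 or UC replicate 5, 0.05 without CC replicate 4 or UC replicate 4, and 0.13 without UC replicate 1 or UC replicate 3. Under quantile normalization it was 0.02, where the median of all genes was 0.03.

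Ndufs8, an iron-sulfur subunit near the coenzyme Q end of complex I, had signals of 9606, 13675, 9072, 8382 and 8422 in CC, 17361, 13463, 11064, 19085 and 13829.5 in UC and 10022, 11818, 13319.7 and 8644 in UU. Only CC replicate 2 reached the UC range, and the difference between UC and CC was 0.60 ± 0.19 (SE; adjusted p = 0.487), the smallest p of a member. The other probe sets of Ndufs8 gave smaller differences of 0.48, 0.40, 0.18, 0.13 and 0.09. Ndufv3, an accessory subunit of the NADH-binding arm, had 12263, 9355, 9723, 12239.7 and 8139 in CC and 17236, 16896, 8897, 21595 and 17415 in UC. UC replicate 3 lay within the CC range and the other UC arrays above it, with a difference of 0.62 ± 0.22 (SE; adjusted p = 0.518). Cox5a, a nuclear-encoded complex IV subunit, differed by 0.44 ± 0.17 (SE; adjusted p = 0.518). The 1 lower member, Atp5g2, had 7583, 6725, 4608, 7290.4 and 10262 in CC and 3049, 4648, 4533, 5044 and 6334 in UC and differed by -0.62 ± 0.27 (SE; adjusted p = 0.555). The other c-ring genes encode the same mature protein, and they differed by -0.30 ± 0.32 (SE; adjusted p = 0.799) for Atp5g1 and 0.27 ± 0.16 (SE; adjusted p = 0.638) for Atp5g3.

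The differences depended on which probe set stood for a gene. Affymetrix marks probe sets that can bind several transcripts with _a_at, _s_at or _x_at and gives the others a plain _at. Of 41 members with several probe sets above the filter, the probe sets had opposite signs for 25 between UC and CC, for 22 between UU and CC and for 10 between UC and UU. In the 29 members with both kinds, the shared kind lay above the plain kind in 27, 24 and 18 members of these comparisons, by medians of 0.46, 0.38 and 0.17. Uqcrb was at 0.44 and -0.69 between UC and CC by its 2 probe sets, and Ndufc2 at 0.41 and -0.50. With the brightest plain probe set of each gene (54 members, an alternative added after the data were seen), the medians were -0.12 for UC minus CC, -0.33 for UU minus CC and 0.25 for UC minus UU. The small excess of UC over CC thus changed sign with the kind of probe set. The excess of UC over UU was 0.28 in the 49 members represented by shared probe sets and 0.27 in the 30 by plain ones. The deficit of UU against CC was smaller with shared probe sets, with medians of -0.09 in these 49 and -0.31 in these 30. In the 29 members with both kinds, its median was -0.03 by the shared kind and -0.38 by the plain kind.

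**Figure D4:**
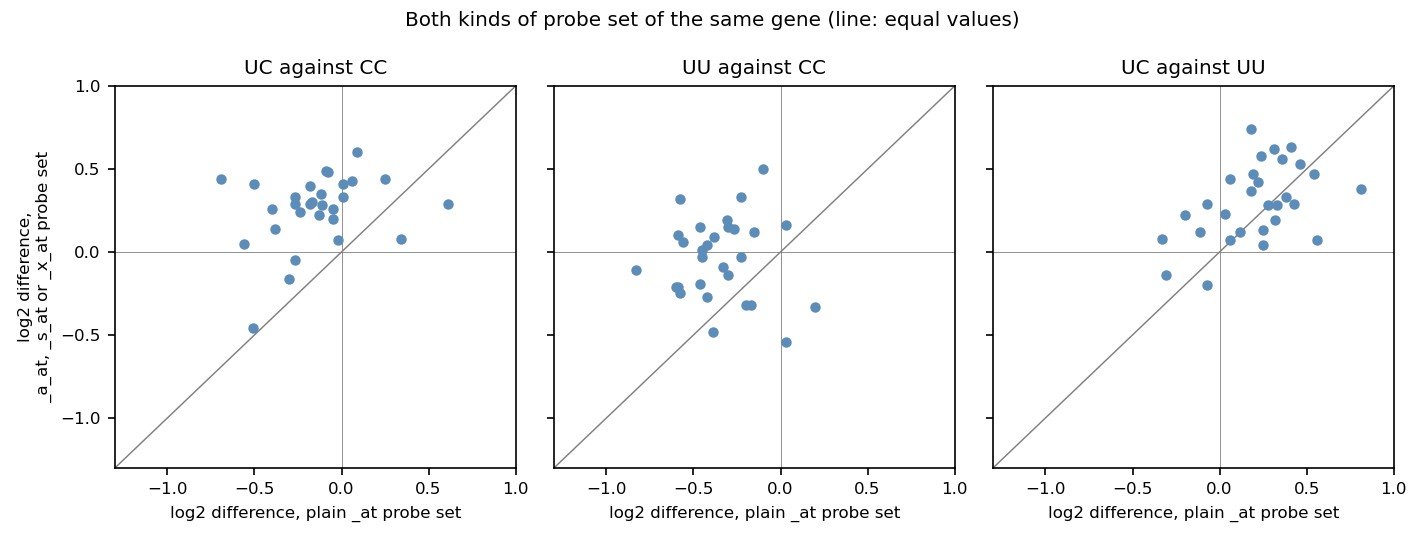
Each point is 1 of the 29 members with both kinds of probe set, with the log2 difference of the plain _at probe set on the x axis and that of the _a_at, _s_at or _x_at probe set on the y axis. Points lie mostly above the line of equal values in UC against CC (27 of 29) and UU against CC (24 of 29), and on both sides of it in UC against UU (18 of 29 above).

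The widest spread among members was in complex IV, whose subunits come in tissue-specific pairs. Cox7a1 and Cox8b encode the isoforms typical of heart, skeletal muscle and brown fat, and Cox7a2 and Cox8a the isoforms found in most tissues. Cox7a1 had signals of 606, 4934, 361, 1056 and 808 in CC, 409, 748, 469, 810.4 and 4267 in UC and 335, 557, 314 and 1316 in UU. Cox8b had 850.0, 11258, 518, 1769 and 2040.3 in CC, 419, 663, 482, 848 and 7788 in UC and 1737, 984, 538 and 2212 in UU. CC replicate 2 and UC replicate 5 stood above every other array for both genes, and the groups overlapped.

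The windows upstream of these genes are shown because the 2 isoforms that moved together differ from their common partners in base composition. They are the 250 bases before each RefSeq start on GRCm38.p6, written 5′ to 3′ on the gene's strand, and capitals mark CG dinucleotides. The window of Cox7a1 is chr7:30183921-30184170 (plus strand) and that of Cox8b chr7:140900447-140900696 (minus strand). The window of Cox7a2 is chr9:79759854-79760103 (minus strand) and that of Cox8a chr19:7217617-7217866 (minus strand).
Cox7a1: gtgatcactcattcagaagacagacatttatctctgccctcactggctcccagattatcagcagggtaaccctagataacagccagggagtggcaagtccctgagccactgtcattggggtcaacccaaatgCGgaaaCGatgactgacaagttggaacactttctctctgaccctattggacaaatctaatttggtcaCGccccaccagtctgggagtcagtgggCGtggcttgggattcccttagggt
Cox8b: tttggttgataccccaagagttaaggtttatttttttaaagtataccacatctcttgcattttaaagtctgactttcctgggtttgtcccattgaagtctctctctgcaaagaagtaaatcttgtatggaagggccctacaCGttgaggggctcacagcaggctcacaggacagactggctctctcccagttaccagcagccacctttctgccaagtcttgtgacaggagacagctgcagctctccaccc
Cox7a2: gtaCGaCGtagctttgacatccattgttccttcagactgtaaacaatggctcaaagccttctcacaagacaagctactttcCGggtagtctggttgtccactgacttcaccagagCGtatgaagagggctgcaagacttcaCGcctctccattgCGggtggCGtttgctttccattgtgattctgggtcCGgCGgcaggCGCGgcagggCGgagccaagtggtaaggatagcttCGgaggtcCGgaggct
Cox8a: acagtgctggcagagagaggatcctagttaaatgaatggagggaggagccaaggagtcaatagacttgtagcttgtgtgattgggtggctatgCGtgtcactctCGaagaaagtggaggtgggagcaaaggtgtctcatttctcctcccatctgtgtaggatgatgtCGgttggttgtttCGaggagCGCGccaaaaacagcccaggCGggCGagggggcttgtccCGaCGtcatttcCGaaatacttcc
Cox7a1 holds 4 CG dinucleotides and Cox8b 1, where Cox7a2 holds 14 and Cox8a 11. Over 32851 RefSeq windows of this length the median was 6, and over the 75 windows of the 70 members with an entry it was 15, with a range of 1 to 35. Cox8b was the member with the fewest.

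The 2 arrays of high Cox7a1 and Cox8b were those with brown fat transcripts. Ucp1, the uncoupling protein of brown fat, had signals of 60.3, 8935, 18.7, 44.9 and 56 in CC, 36.5, 642, 57.3, 85.6 and 17041 in UC and 199, 76.1, 24.1 and 130.2 in UU. Cidea, a lipid droplet protein abundant in brown fat, was at 14488 and 7923 in CC replicate 2 and UC replicate 5 and at most 332 elsewhere. The summed signal of the 6 brown fat markers on the array was 27118 and 28307 in these arrays and 1148 to 2435 in the other 12. These are also the 2 arrays with Xist signal, so brown fat transcripts and Xist signal cannot be told apart here. Both are low in epididymal markers, as are CC replicate 4 and UC replicate 2. The latter 2 had summed brown fat signals of 1916 and 2183, Cox7a1 signals of 1056 and 748 and Cox8b signals of 1769 and 663. Which tissue the Cox7a1 and Cox8b signals came from was not tested. Skeletal muscle markers were high in another pair, with summed signals of 26691 in CC replicate 2 and 29266 in CC replicate 5 against at most 4980 elsewhere. In CC replicate 5, which had muscle but no brown fat transcripts above the other arrays, Cox7a1 was 808 and Cox8b 2040.3, within or just above the range of the remaining CC arrays. Cox6a2, the muscle isoform of subunit VIa, lay below the filter and was highest in that array at 1296, against 307 to 774 elsewhere.

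The common isoforms did not show that step. Cox7a2 had 35932 and 35044 in these arrays and 16831 to 37346 in the others, and Cox8a had 12386 and 13943, within or barely above the 2757 to 13829 of the others. Between groups Cox7a1 differed by -0.86 ± 0.71 (SE; adjusted p = 0.546) in UU against CC and Cox8b by -0.57 ± 0.85 (SE; adjusted p = 0.757). Without the 2 arrays these were -0.30 (adjusted p = 0.762) and 0.09 (adjusted p = 0.942). Over all members, leaving out the 2 arrays gave medians of 0.11 between UC and CC, -0.10 between UU and CC and 0.20 between UC and UU.

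**Figure D5:**
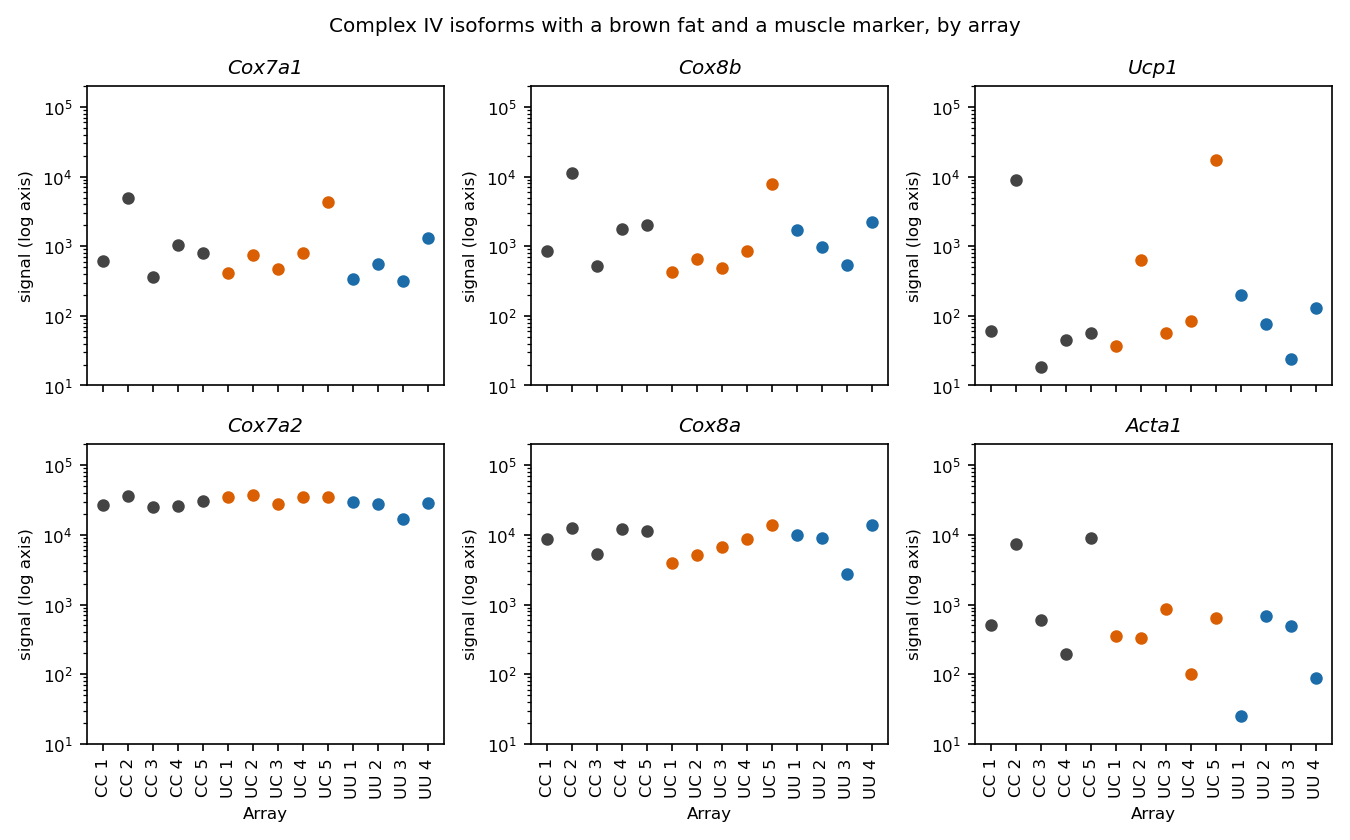
Signals by array on log axes for the isoforms Cox7a1, Cox8b, Cox7a2 and Cox8a and for the markers Ucp1 (brown fat) and Acta1 (skeletal muscle); grey is CC, orange UC and blue UU. Cox7a1, Cox8b and Ucp1 peak in CC replicate 2 and UC replicate 5, while Acta1 peaks in CC replicates 2 and 5.

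Among the remaining isoforms, Cox4i1, the common form of subunit IV, differed by -0.21 ± 0.21 (SE; adjusted p = 0.627) in UU against CC, and its partner Cox4i2 was below the filter. Cox6a1 and Cox6b1, the common forms of VIa and VIb, differed by -0.11 ± 0.21 (SE; adjusted p = 0.816) and -0.21 ± 0.20 (SE; adjusted p = 0.605) between UU and CC and by 0.26 ± 0.21 (SE; adjusted p = 0.523) and 0.47 ± 0.20 (SE; adjusted p = 0.238) between UC and UU. The second probe sets of Cox6a1 and Cox6b1 gave -0.64 and -0.60 between UU and CC and -0.02 and 0.19 between UC and UU. Cox7a2l takes part in joining complexes III and IV into supercomplexes. By its brightest probe set it lay the other way from most members, at 0.31 ± 0.16 (SE; adjusted p = 0.343) between UU and CC and -0.30 ± 0.16 (SE; adjusted p = 0.336) between UC and UU. The other probe sets of Cox7a2l gave 0.13 and -0.29 between UU and CC and -0.36 and -0.90 between UC and UU. Cox8c, a form known from testis, was at 0.40 ± 0.18 (SE; adjusted p = 0.563) in UC against CC and 0.40 ± 0.19 (SE; adjusted p = 0.317) in UU against CC.

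Other genes of the pathway were read from lists chosen by function. In the list of electron entry, coenzyme Q and carrier genes, 15 of 20 tested members lay below CC in UU, with a median of -0.40, and 16 of 20 lay above UU in UC, with a median of 0.29. Here 0 were called. At an unadjusted p under 0.05, 5 were lower and 0 higher in UU against CC, where 7.75% and 8.63% of all genes were, and 8 were higher and 0 lower in UC against UU, where 9.17% and 8.74% of all genes were. Etfdh passes electrons from fatty acid oxidation to coenzyme Q. It had 2425, 5379, 2016, 2593 and 2222 in CC and 1552, 3339, 2557, 2442 and 4089 in UC. The UU arrays had 1940.0, 967, 971 and 1951. Every UU array was below every CC array, as was so for 3.63% of all genes. The Etfdh difference was -0.97 ± 0.33 (SE; adjusted p = 0.176) between UU and CC and 0.93 ± 0.33 (SE; adjusted p = 0.171) between UC and UU. Etfa, a subunit of the flavoprotein that feeds Etfdh, differed by -0.81 ± 0.28 (SE; adjusted p = 0.18) and 0.71 ± 0.28 (SE; adjusted p = 0.206) in these comparisons. Coq9, which is needed to make coenzyme Q, differed by 1.0 ± 0.27 (SE; adjusted p = 0.0901) between UC and UU, and Coq5, a methyltransferase of the same pathway, by 0.69 ± 0.20 (SE; adjusted p = 0.111).

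The lists of genes that build or regulate the complexes had medians nearer to 0. Of 26 tested assembly factors 14 lay below CC in UU, with a median of -0.01, and of 15 regulators of mitochondrial transcription 7 lay below, with a median of 0.16. In UC against UU their medians were 0.13 and -0.13, and 0 of either list were called in any comparison. Surf1, an assembly factor of complex IV, was at -0.42 ± 0.16 (SE; adjusted p = 0.221) in UU against CC, and Pprc1, a relative of the coactivator Ppargc1a, at -0.63 ± 0.28 (SE; adjusted p = 0.25) in UC against UU. Of the electron carriers with other symbols, Cyc1 of complex III differed by 0.51 ± 0.20 (SE; adjusted p = 0.207) and cytochrome c (Cycs) by 0.48 ± 0.23 (SE; adjusted p = 0.28) in UC against UU. Atpif1, the inhibitor of the ATP synthase, lay the other way, at 0.50 ± 0.21 (SE; adjusted p = 0.255) in UU against CC. ND5, a mitochondrially encoded complex I subunit, had 48925, 53076, 51929, 65896 and 50005 in CC and 48078, 47505, 40412 and 47823 in UU. Every UU array was below every CC array, as was so for 3.63% of all genes. The ND5 difference was -0.23 ± 0.14 (SE; adjusted p = 0.406).

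Markers of other cell types differed between the groups in both directions. All 6 white adipocyte markers on the array, of 8 listed, lay below CC in UU, with a median of -0.94, and their summed signals were 186960 to 307022 in CC, 190929 to 363210 in UC and 130060 to 223555 in UU. All 6 macrophage markers lay below CC in UU, with a median of -1.01 and summed signals of 40047 to 108590 in CC, 45300 to 128540 in UC and 14795 to 31782 in UU. In UC against UU 2 macrophage markers were called higher, where 0.807% of all genes were called in either direction. None of the 7436 genes, and so none of these markers, was called in UU against CC or UC against CC. All 5 endothelial markers lay below CC in UU, with a median of -0.76 and summed signals of 7934 to 14412 in CC, 6463 to 11351 in UC and 5982 to 7302 in UU. Liver markers and most epididymal markers lay the other way in UU against CC by mean log2 signal. Both tested liver markers, Alb and Ttr, lay above CC, with a median of 1.44 in UU and 2.92 in UC, and the summed signals of 5 liver markers were 840 to 1917 in CC, 2149 to 63941 in UC and 2059 to 3019 in UU, with no overlap between CC and either other group. Of 5 tested epididymal markers 4 lay higher in UU than in CC, with a median of 1.51. The part of these cells in the members' differences was not tested. The 3'/5' ratio averaged 0.71 in CC, 1.22 in UC and 1.15 in UU (exact permutation test, two-sided, p = 0.0794 for UC against CC and p = 0.206 for UU against CC). With that ratio as a covariate the members' medians were 0.16 between UC and CC, -0.07 between UU and CC and 0.27 between UC and UU. When the level of epididymal markers was the covariate they were 0.05, -0.12 and 0.18.

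The upstream windows were also searched for motifs of factors known to act on respiratory genes. On either strand of the upstream windows, an NRF1-type motif spelled GCGCANGCG was found in 13 of 75 member windows (17.3%) and in 5.16% of all 32851 windows. An ETS-type motif spelled CCGGAAG was likewise in 13 member windows (17.3%) and in 6.91% of all windows. Both motifs contain CG, which member windows hold more of, and windows of like CG content were not compared. A match of letters is a description of the window only, and most member windows hold neither motif. The members holding the NRF1-type motif include Sdhd, Sdha, Ndufs5, Atp5l and Cox6a1, and those holding the ETS-type motif include Sdhd, Ndufs3, Ndufb6, Cox6b1 and Atp5l. No window was listed for Atp5a1, Atp5mpl, Cox4i1, Cox4i2, Cox6a2, Cox6c, Cox8c, Ndufa2, Ndufb9, Ndufs1, Sdhc, Uqcrb, Uqcrc2 and Uqcrq.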

How the data were processed

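Epididymal fat of 14 mice was hybridised to 1 array each. Per the submitters' processing notes the authors used GCOS 1.3 and MAS5, and the deposited values are linear signal intensities, 1 per probe set. The mean after trimming 2% off each end was 1500.45 to 1500.57 over the arrays. Of 22690 probe sets, 20380 had 1 symbol, 691 several, 1555 none and 64 were controls. Symbols were updated through Entrez identifiers for 20351 probe sets. The brightest probe set stood for each of 12393 genes, signals were taken as log2(signal + 32), and the dimmest 40% of genes were left out.

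All arrays entered 1 fit in limma 3.58.1 (R 4.3.3), with a mean per group, a variance trend in the empirical Bayes step (11 residual degrees of freedom) and Benjamini-Hochberg adjustment over 7436 genes. The fit was first tested on simulated data. Within groups, arrays correlated at r = 0.877 to 0.951, and none were duplicates.

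The genes, the lists and several alternatives were chosen with earlier results of these data known. Named members are, in each comparison, the 8 of smallest p and the extremes of each complex, the brightest 2 of each complex, the paired complex IV isoforms, the Sdh genes and those whose probe sets differ most, with 3 genes of smallest p from each further list. Uqcrc1, Atp5b, Atp5a1 and Atp5g1 were added for their roles after their values were seen. Cell type markers named are the brightest 2 of a list. Alternatives covered the pseudocount, filter, scaling, probe set rule, variance model, array weights, groups fitted, replicate block, threshold, covariates, and arrays left out. Upstream windows are RefSeq's on GRCm38.p6. Figures were drawn with matplotlib 3.10.9.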

Additional observations from a re-analysis of the deposited data

Results flagged for a closer look

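In 144 groups of values (48 named members in 3 groups of arrays), the highest or lowest array stood far from the others of its group on the log2(signal + 32) scale 21 times. Chance gives about 1 in 20 for independent values, but values of members on 1 array are not independent, and 11 of the 21 come from CC replicate 2 and 5 from UU replicate 3.

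CC replicate 2 was the far high array in 11 of them. Its complex I signals were 13675 for Ndufs8, 27506 for Ndufb11, 9106 for Ndufs7, 6847 for Ndufs1 and 25981 for Ndufb9, and that of the assembly factor Ndufaf1 was 2044. In complex II it had 20986 for Sdhb and 6572 for Sdhc, in complex III 26117 for Uqcrc2 and 14876 for Uqcrfs1, and in complex IV 37546 for Cox5a. The next CC array had 9606, 20305 and 4692 for Ndufs8, Ndufb11 and Ndufs7. UC replicate 5 was far above the other UC arrays for Cox8b at 7788 and Cox7a1 at 4267.

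UU replicate 3 was the far low array of its group for 5 members, with 352.4 for Ndufaf3, 1839 for Sdhd, 1476 for Atp5l, 1660.2 for Ndufs4 and 16831 for Cox7a2. UC replicate 3 was far below the other UC arrays for Ndufv3 at 8897 and Cox7a2 at 27385, and UC replicate 1 for Ndufa8 at 1166.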

How the results depend on the processing

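No member was called under the alternatives that give a test of single genes, at an adjusted p under 0.05 in any comparison. The plain probe sets were not tested. The members' median difference ran from -0.12 (plain probe sets, added after the data were seen) to 0.19 in UC against CC, from -0.33 to -0.04 (array weights) in UU against CC, and from 0.12 to 0.42 in UC against UU. Of 24 differences of single members under 30 alternatives each, the direction changed once, for Ndufc2 in UC against CC, which was -0.05 as the mean of its probe sets. Their plain probe sets, not among the 30, gave -0.50 for Ndufc2, -0.18 for Ndufb11, -0.09 for Ndufb6 and -0.08 for Ndufs7 in UC against CC, where the values reported are positive. The count of all genes called in UU against CC was 1 with no filter, 3 with the dimmest 60% left out, 12 with array weights, 11 with the epididymal level as a covariate, 1 with the 3'/5' ratio as one, 1 without the 4 arrays low in epididymal markers, 1 without the 2 arrays with Xist signal and 11 at an adjusted p under 0.1. In UC against UU it was 60, and 25 with no filter, 105 with median centring (103 higher and 2 lower, against 51 and 9), 38 with the mean of probe sets, 9 with 2 groups only, 115 with the 3'/5' ratio, 1 without the 4 arrays, 3 without the 2 and 199 at 0.1. Leaving out 1 array gave 0 to 3 genes in UU against CC and 0 to 108 in UC against UU. With a replicate block the counts were 7 and 94, and the members' medians -0.16 and 0.25. Arrays of the same number correlated from -0.324 to 0.486 in their deviations from group means. Arrays of different number were not compared in this way, so whether the numbers mark a pairing was not tested. How far each probe set lay above its background is not known here.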
